A study of Saccharomyces cerevisiae with 11 samples.

Results

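The genes described here are 7 phosphatases that budding yeast uses to free or recycle phosphate. PHO5, PHO11 and PHO12 encode secreted acid phosphatases that phosphate limitation induces, PHO3 encodes a secreted acid phosphatase made when phosphate is plentiful, PHO8 encodes the alkaline phosphatase of the vacuole, PHM8 encodes a cytosolic nucleotidase and PHO13 encodes a cytosolic phosphatase of small metabolites. They were chosen by name, with earlier results of these data known, and all 7 were found on the arrays, among 5593 genes named in both value tables. RNA of Saccharomyces cerevisiae S288C cultures given 2 μM arsenate was set against RNA of untreated cultures, which received sodium chloride instead, on 11 arrays with 2 channels each. Low phosphate medium held 100 μM phosphate, with 2 arrays for each of 4, 8 and 10 h. High phosphate medium held 1 mM phosphate, with 2 arrays for 4 h, 2 for 8 h and a single one for 10 h. All cultures grew on sucrose, and arsenate or sodium chloride was added at an optical density of 0.08.

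Cells short of phosphate activate the PHO pathway, in which the kinase complex of Pho80 and Pho85 is inhibited by Pho81 and the activator Pho4, helped by Pho2, enters the nucleus and switches on phosphatases, carriers and polyphosphate genes. The secreted acid phosphatases sit in the periplasm and cell wall and cleave phosphate from organic esters outside the cell, while Pho8 does so in the vacuole. Phm8 removes phosphate from nucleotide monophosphates, a step in the salvage of ribose from RNA. Arsenate is an analogue of phosphate and enters through the same carriers.

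Values are given as log2 of the arsenate to control ratio, so that 1 means a transcript 2-fold higher in the arsenate culture and -1 one 2-fold lower. The words rose and fell describe this ratio, not a change within 1 culture. Intensities were not used, so which of the 2 cultures a change of the ratio lies in was not tested. The arsenate RNA carried Cy5 and the control RNA Cy3 on every array, with no dye swap, so a dye preference of a gene is part of its ratio. The direction was taken from the dyes and is not stated for the values. ARR2 and ARR3, the arsenate reductase and the arsenite exporter that arsenic induces, averaged over their spots, were positive on every array that measured them, at 0.44 to 8.00. The 0.44, of ARR3 on the second 4 h array of high phosphate, averages spots at 2.62 and -1.73, the one negative spot of these genes. The arrays held values for 4484 to 5451 genes, replicate arrays correlated across genes at 0.767 to 0.936 at low phosphate and at 0.549 and 0.199 for 4 h and 8 h at high phosphate, and the median over genes ran from -0.18 to 0.18. Low and high phosphate RNA lay on different array designs, so phosphate and array design cannot be told apart in any difference between them. The labels do not say that replicates were separate cultures, so p-values cover only the variation of these arrays, and their number limits the precision. The test used, limma, also pools the spread over all genes. At low phosphate its 15.5 prior degrees of freedom outweigh the 3 residual ones of PHO5, so SEs there rest mostly on the pooled spread. PHO5 at 4 h had an SD of 0.014 between arrays and an SE of 0.12.

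**Figure D1:**
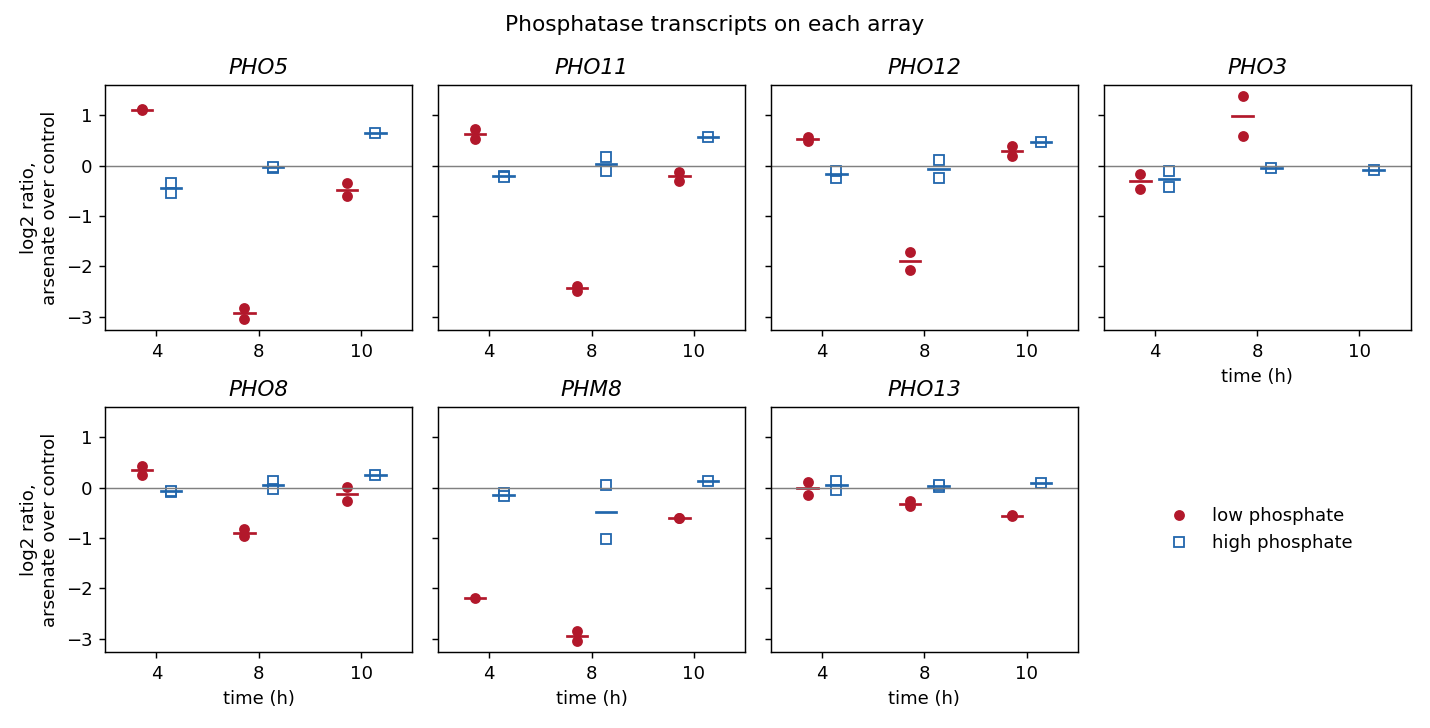
Log2 ratio of arsenate over control (vertical axis) on each array by time in h (horizontal axis) for the 7 phosphatase genes, with filled circles for low phosphate, open squares for high phosphate and bars for the mean of a time. PHO5, PHO11 and PHO12 at low phosphate lie above 0 at 4 h and between -3.04 and -1.72 at 8 h, while PHO3 lies above 0 at 8 h.

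The 3 inducible secreted acid phosphatases were higher with arsenate at 4 h of low phosphate. PHO5, the major one, had 1.12 and 1.10 on the 2 arrays. PHO11 had 0.54 and 0.72, and PHO12 had 0.49 and 0.57. All 6 values were positive, and both PHO5 values lay above those of PHO11 and PHO12. In limma, fitted over 5185 genes with Benjamini-Hochberg adjustment, PHO5 rose by 1.11 (SE 0.12, adjusted p = 2.29e-06), or 2.16-fold. PHO11 rose by 0.63 (SE 0.12, adjusted p = 0.000906) and PHO12 rose by 0.53 (SE 0.13, adjusted p = 0.00465). Genes called higher at 4 h were 14.7% of those tested and genes called lower 11.6%, against 4 higher and 1 lower of the 6 phosphatases fitted. That split over all genes, 763 higher and 603 lower, was 1351 and 348 without the first 4 h array, 299 and 791 without the second, and 883 and 922 after centring.

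At 8 h the same 3 genes lay far below control. PHO5 had -2.82 and -3.04, PHO11 had -2.39 and -2.49, and PHO12 had -1.72 and -2.08. Averaged over spots, the pair of values of each gene did not overlap with those of the others. Single spots of PHO5 and PHO11 did overlap, with a PHO5 spot at -2.59 and a PHO11 spot at -2.75. PHO5 fell by 2.93 (SE 0.12, adjusted p = 1.63e-12), which put its transcript 7.62-fold below that of the control culture. PHO11 fell by 2.44 (SE 0.12, adjusted p = 1.84e-11), or 5.43-fold, and PHO12 fell by 1.90 (SE 0.13, adjusted p = 1.32e-09), or 3.72-fold. Counted from the lowest of 5185 genes, PHO5 ranked 8, PHO11 ranked 13 and PHO12 ranked 32. All 6 phosphatases fitted were called lower at 8 h, when 30.5% of genes were called lower and 18.3% higher. The median over all genes was -0.13 at this time, and after each array was centred on its median the 3 stood at -2.79, -2.30 and -1.76, all still called.

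By 10 h the 3 lay nearer control and their signs differed. PHO5 had -0.60 and -0.35, PHO11 had -0.30 and -0.13, and PHO12 had 0.39 and 0.20. PHO12 lay above 0 on both arrays and PHO5 and PHO11 below 0. PHO5 fell by 0.48 (SE 0.12, limma adjusted p = 0.00636), while PHO11 at -0.21 (SE 0.12, adjusted p = 0.18) and PHO12 at 0.29 (SE 0.13, adjusted p = 0.0823) did not pass. Without the first 10 h array PHO5 no longer passed (-0.35, adjusted p = 0.301, in a range over its alternatives from 0.0013 to 0.301). PHO11 passed as lower after centring (-0.28, adjusted p = 0.0201, range 0.0201 to 0.774). PHO12 passed as higher without the first or the second 4 h array (adjusted p = 0.0332 and 0.0443, range 0.0332 to 0.621). Of all genes 12.8% were called lower and 20.2% higher at 10 h, against 3 of the 6 phosphatases lower and 0 higher.

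The swings between times were tested directly. From 4 to 8 h the log2 ratio of PHO5 changed by -4.04 (SE 0.17, 95% interval -4.41 to -3.68, limma adjusted p = 9.29e-12), which is rank 2 from the lowest of 5185 genes. PHO11 changed by -3.07 (SE 0.17, adjusted p = 4.42e-10) and PHO12 by -2.43 (SE 0.18, adjusted p = 1.3e-08). From 8 to 10 h PHO5 changed by 2.45 (SE 0.17, adjusted p = 8.76e-09), PHO11 by 2.23 (SE 0.17, adjusted p = 2.61e-08) and PHO12 by 2.19 (SE 0.18, adjusted p = 5.46e-08). These differences share the 8 h arrays, so they are not independent of each other. Of the 6 phosphatases fitted, 5 were called lower at 8 h than at 4 h and 5 higher at 10 h than at 8 h, with 0 called in the opposite direction. Of all genes, 21% were called lower and 12.1% higher for 8 h against 4 h (median -0.11), and 30.6% higher and 14.8% lower for 10 h against 8 h (median 0.22). A dye preference that is constant cancels in these differences.

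**Figure D2:**
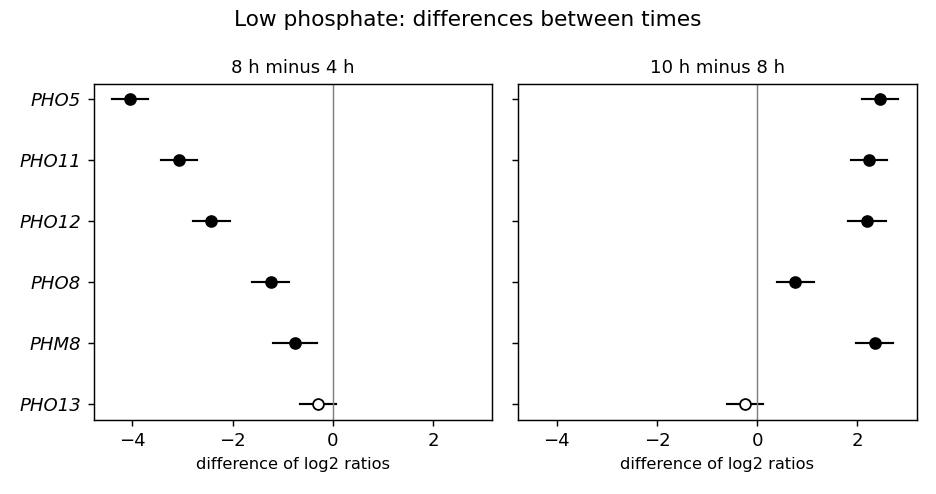
Difference of log2 ratios between times at low phosphate (horizontal axis) for the 6 phosphatases fitted (vertical axis), with limma's 95% interval as a line, filled points for adjusted p below 0.05 and open points otherwise. The points of PHO5 lie at -4.04 for 8 h minus 4 h and at 2.45 for 10 h minus 8 h, and those of PHO13 are open in both panels.

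PHO11 and PHO12 are near-identical genes close to chromosome ends. In the RefSeq gene table PHO11 is the last gene of chromosome I and PHO12 has 3 genes between it and the end of chromosome VIII. Spots for such a pair can bind both transcripts, and no probe sequence was used here, so the values of each may hold some of the other. Even so their averaged ratios were not equal, though the difference was not tested. On the second 8 h array 1 PHO11 spot, at -2.22, lay near the PHO12 spot, at -2.08. PHO11 minus PHO12 was 0.04 and 0.15 (4 h), -0.68 and -0.41 (8 h) and -0.69 and -0.32 (10 h). PHO5 minus PHO11 was 0.59 and 0.38 on the 4 h arrays, -0.43 and -0.55 on the 8 h arrays and -0.30 and -0.22 on the 10 h arrays. PHO5 thus had the widest range of the 3 across the low phosphate arrays. PHO5 and PHO11 each had 2 spots, which differed by at most 0.45 and 0.53 on a low phosphate array, and PHO12 had 1 spot.

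PHO3 went the other way from PHO5, its neighbour on chromosome II, whose sequence it resembles. PHO3 is not part of the induced set and is known to be repressed by thiamine. At low phosphate its single spot had -0.47 and -0.16 on the 4 h arrays and 1.38 and 0.58 on the 8 h arrays, and it had no value on either 10 h array. Both 4 h values lay below 0 and both 8 h values above it, while the 8 h arrays differed by more than any pair of PHO5 values (SD 0.57, n = 2). With no 10 h value PHO3 stayed outside the fit that needs all 3 times. A limma fit over genes with a value in the groups compared, added after the values were seen, gave 0.98 at 8 h (SE 0.16, adjusted p = 8.74e-05), a rise of 1.97-fold, among 17.8% of 5376 genes called higher. In that fit PHO3 changed by 1.30 from 4 to 8 h (SE 0.22, adjusted p = 0.000356), among 12.2% of 5203 genes called higher. At 4 h it stood at -0.31 (SE 0.16, adjusted p = 0.157). These SEs rest mostly on a spread pooled over all genes and are smaller than the SD of the 8 h arrays would give. On the same arrays PHO3 minus PHO5 was -1.59 and -1.27 (4 h) and 4.20 and 3.62 (8 h). DIA3, a relative of the acid phosphatases that was not fitted, had no value at 4 h, -0.65 and -0.97 on the 8 h arrays and -0.36 and -0.85 on the 10 h arrays.

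PHO8, the vacuolar alkaline phosphatase, followed the secreted enzymes with a smaller range. It had 0.26 and 0.44 (4 h), -0.83 and -0.96 (8 h) and -0.27 and 0.01 (10 h). The 8 h values lay apart from those of both other times. It fell by 0.90 at 8 h (SE 0.12, limma adjusted p = 8.62e-06), or 1.86-fold. At 4 h it rose by 0.35 (SE 0.12, adjusted p = 0.0445), which failed with the replicate number as a block (0.0525), without the second 4 h array (0.22), without either 8 h array (0.0749 and 0.075) and without either 10 h array (0.0818 and 0.0912), in a range from 0.0246 to 0.22. At 10 h it stood at -0.13 (SE 0.12, adjusted p = 0.434). Its changes of -1.24 from 4 to 8 h (SE 0.17, adjusted p = 3.64e-05) and 0.76 from 8 to 10 h (SE 0.17, adjusted p = 0.00179) passed, the second failing without the second 10 h array (0.62, adjusted p = 0.0628, range 0.000144 to 0.0628). PHO8 minus PHO5 was -0.87 and -0.66 (4 h) and 1.99 and 2.08 (8 h), so PHO8 moved less than PHO5 in both directions.

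PHM8, the nucleotidase, was lower at all times of low phosphate. It had -2.19 on the 1 array of 4 h that measured it, -3.05 and -2.84 on the 8 h arrays and -0.61 and -0.60 on the 10 h arrays. No array was above 0. At 8 h it fell by 2.95 (SE 0.12, limma adjusted p = 3.86e-12), 7.71-fold and rank 7 from the lowest, and at 10 h it fell by 0.60 (SE 0.12, adjusted p = 0.00121). The 4 h value, -2.19 (SE 0.17) and rank 13 from the lowest, has no replicate. Its error is taken from the other times and, mostly, from the spread pooled over all genes. Its 4 h sign opposed that of PHO5, with a difference of -3.32 between them on that array, whereas the genes differed by -0.23 and 0.19 at 8 h. PHM8 changed by -0.75 from 4 to 8 h (SE 0.21, adjusted p = 0.0111), which failed without the first 8 h array (-0.65, adjusted p = 0.103) and turned to 0.35 after scaling of the arrays (adjusted p = 0.263, range 0.00345 to 0.263). It changed by 2.34 from 8 to 10 h (SE 0.17, adjusted p = 2.66e-08).

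SDT1 encodes a pyrimidine nucleotidase and is the paralog of PHM8. Its values were 0.47 and 0.61 on the 4 h arrays, -1.15 and -1.12 on the 8 h arrays and -0.10 and -0.27 on the 10 h arrays. It rose by 0.54 at 4 h (SE 0.12, limma adjusted p = 0.00281) and fell by 1.13 at 8 h (SE 0.12), so its 4 h sign was that of PHO5 and not of PHM8. Of the other nucleotide and ribose salvage genes fitted, ISN1, an IMP nucleotidase, fell by 0.95 and RNY1, a vacuolar RNase, fell by 1.19 at 8 h. RNY1 also fell at 4 h, by 0.41 (SE 0.13, adjusted p = 0.0244), a call lost without the first 4 h array (-0.27, adjusted p = 0.154). The purine nucleoside phosphorylase PNP1 at -0.26 (adjusted p = 0.0868) and the nucleosidase URH1 at -0.11 (adjusted p = 0.468) did not pass at 8 h. Of these 5, 1 was called higher and 1 lower at 4 h, against 14.7% and 11.6% of all genes. At 8 h 0 were higher and 3 lower, against 18.3% and 30.5%. At 10 h none of these 5 passed, with values from -0.19 to 0.25 and adjusted p = 0.128 or more. All genes then had 20.2% higher and 12.8% lower. ISN1 was also at -0.93 at 8 h of high phosphate (SD 0.96, n = 2). For low minus high phosphate at 8 h, 1 of the 5 was lower and 0 higher, against 9.92% and 18.8% of all genes.

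PHO13, the cytosolic phosphatase, was nearest to 0 of the 6 phosphatases fitted at 4 h and 8 h but not at 10 h. It had -0.14 and 0.11 (4 h), -0.36 and -0.27 (8 h) and -0.57 and -0.55 (10 h). Its lowest pair was at 10 h, where the other members measured lay nearer 0 than at 8 h. It fell by 0.56 at 10 h (SE 0.12, limma adjusted p = 0.00168), which failed without the first (0.0696) or second 10 h array (0.0665), in a range from 0.000119 to 0.0696. At 8 h it fell by 0.32 (SE 0.12, adjusted p = 0.0371). That call failed after centring (-0.18, adjusted p = 0.0778), after scaling (0.102), with the replicate block (0.0525), without either 8 h array (0.329 and 0.185) and without either 10 h array (0.0756 and 0.0844), in a range from 0.00728 to 0.329. At 4 h it stood at -0.02 (adjusted p = 0.934). Its differences between times, -0.30 from 4 to 8 h (adjusted p = 0.187) and -0.25 from 8 to 10 h (adjusted p = 0.247), did not pass, and their 95% intervals were -0.66 to 0.06 and -0.60 to 0.11. The first passed without the first 4 h array (-0.42, adjusted p = 0.0378, range 0.0378 to 0.509) and the second after centring (-0.44, adjusted p = 0.0127, range 0.0127 to 0.58).

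The other genes of the phosphate pathway give the setting for these changes. Of 31 listed, 27 could be fitted at low phosphate. At 4 h 5 were higher and 3 lower (median 0.12, against 0.04 over all genes), shares close to the 14.7% and 11.6% of all genes. The higher ones were led by the sodium-coupled phosphate carrier PHO89 at 0.98 (SE 0.12), PHM6 at 0.74 (SE 0.12) and the glycerophosphodiesterase GDE1 at 0.47 (SE 0.13), the last lost without the second 4 h array (0.27, adjusted p = 0.175). PHM7 at -1.30, the kinetochore gene CTF19 at -1.26 on 1 array and the activator PHO2 at -0.68 fell. PHM7 had -2.02 and -0.57 on the 4 h arrays (SD 1.03, n = 2), so either array alone moves its value by over 1.5 times, and it did not pass with robust empirical Bayes (adjusted p = 0.0973). At 8 h 1 was higher and 18 lower (median -0.70, against -0.13), where 18.3% of all genes were higher and 30.5% lower. Of those fitted PHM6 at -3.19 (SE 0.12), GDE1 at -1.58 (SE 0.13) and CTF19 at -1.52 (SE 0.12) were lowest, with the low-affinity phosphate carrier PHO90 the one that rose, by 1.04 (SE 0.13). GIT1, the glycerophosphoinositol carrier, had no 4 h value and so was not among the 27, but lay lower still at 8 h, at -3.46 and -3.90, and at -0.20 and -0.19 at 10 h. In the added fit over genes with a value in the groups compared GIT1 fell by 3.68 at 8 h (SE 0.13, limma adjusted p = 1.85e-12). At 10 h 2 were higher and 1 lower (median -0.0018, against 0.07), below the 20.2% and 12.8% of all genes. They were PHM7 at 1.39, PHO2 at 0.63 and the activator PHO4 at -0.64. PHO2 and PHO4 did not pass without the second 10 h array (adjusted p = 0.0546 and 0.0521), nor PHM7 with robust empirical Bayes (adjusted p = 0.0743). The median of the 6 phosphatases was 0.44 at 4 h, -2.17 at 8 h and -0.34 at 10 h.

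From 4 to 8 h 16 of the 27 were called lower and 2 higher, against 21% and 12.1% of all genes. From 8 to 10 h 19 were called higher and 2 lower, against 30.6% and 14.8%. Of the 27, PHM6 had the largest called change in both, -3.93 (SE 0.17) and 2.90 (SE 0.17). PHO89 and GDE1 followed from 4 to 8 h with -2.43 and -2.04, and PHO90 and PHM7 changed by 1.03 and 0.90. The value of PHM7 was 0.18 without the first 4 h array (adjusted p = 0.365) and 1.63 without the second, and it did not pass with robust empirical Bayes (0.309) or after scaling (1.25, adjusted p = 0.0848). From 8 to 10 h PHM7 and the high-affinity carrier PHO84 followed with 1.78 and 1.47, and PHO90 and SYG1, a membrane protein, changed by -1.12 and -0.50. PHM7 did not pass with robust empirical Bayes here either (adjusted p = 0.0745), and SYG1 did not pass after scaling (0.0761) or without any 1 array of 8 h or 10 h (0.0646 to 0.272). GIT1, outside the 27, changed by more than PHM6 from 8 to 10 h in the added fit, by 3.49 (SE 0.19, limma adjusted p = 1.6e-09).

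**Figure D3:**
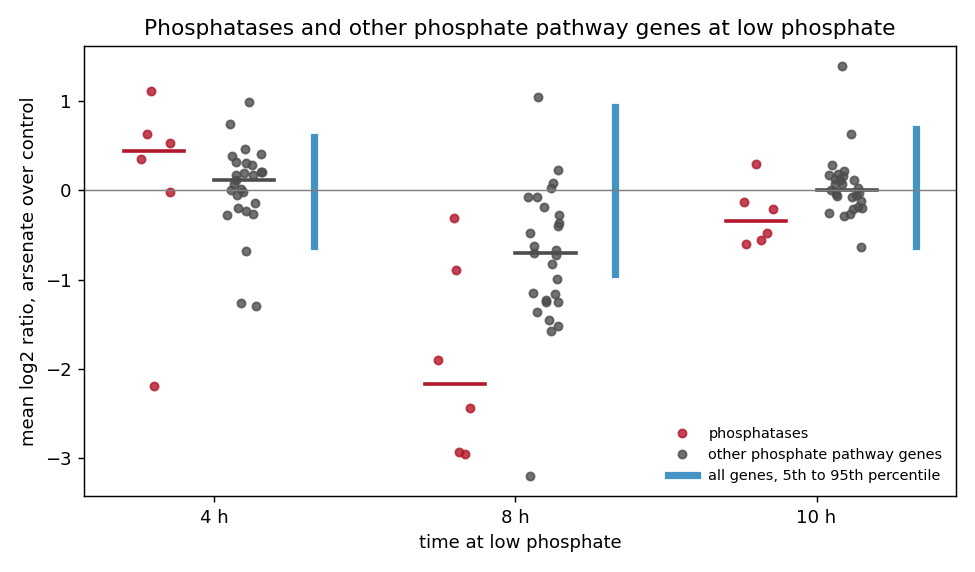
Mean log2 ratio of arsenate over control at low phosphate (vertical axis) at 4, 8 and 10 h (horizontal axis) for the 6 phosphatases fitted and the other 27 phosphate pathway genes fitted, each point a gene and each bar a median. The blue line spans the 5th to the 95th percentile over all genes, averaged over the arrays of a time. The phosphatase median is -2.17 at 8 h, against -0.70 for the other pathway genes.

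Genes whose profiles lay nearest to a phosphatase over the 6 low phosphate arrays were sought among 4742 other genes measured on all 6, by the root mean square difference of log2 ratios. PHM6, a gene of unknown function induced by low phosphate, was nearest to PHO5 at 0.29, closer than PHO11 at 0.43 and PHO12 at 0.83, and LEE1, ICY1, TDH1 and HPF1 followed at 0.63 to 0.71. LEE1, a zinc finger protein, was nearest to PHO11 at 0.26 and to PHO12 at 0.26. HPF1, CSS1, ICY1 and TDH1 came next for PHO11 (0.34 to 0.41), and YSR3, CSS1, PHO84 and VTC3 for PHO12 (0.34 to 0.38). The 5 nearest to PHO8 were CBP4, MAG1, YDL124W, MDH2 and MDH1, at 0.08 to 0.13, and the 5 nearest to PHO13 were TMH11, PEX19, YDL086W, YJR084W and CUP9, at 0.09 to 0.11. Genes with ratios near 0 lie close to many others by this measure, and PHO3 and PHM8 lacked values for it.

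At high phosphate the ratios of the phosphatases were small. PHO5 had -0.55 and -0.34 (4 h), -0.04 and -0.03 (8 h) and 0.65 on the single 10 h array. PHO11 had -0.21 and -0.22 (4 h), -0.11 and 0.18 (8 h) and 0.56 (10 h), and PHO12 had -0.24 and -0.10, 0.11 and -0.24, and 0.46 at the same times. All 3 were below 0 on both 4 h arrays and above 0 on the 10 h array. The medians over all genes were themselves -0.14 and -0.12 on those 4 h arrays. Less the array medians, the 4 h means were -0.31 for PHO5, -0.08 for PHO11 and -0.04 for PHO12. PHO3 had -0.43 and -0.10 at 4 h, -0.05 on 1 array at 8 h and -0.09 at 10 h. PHO8 ran from -0.09 to 0.25 and PHO13 from -0.04 to 0.13 over the 5 arrays. PHM8 ran from -0.17 to 0.12 on 4 of the arrays and was -1.02 on the second 8 h array, which correlated at 0.199 with its replicate.

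Limma over 4816 genes called 0 of the 7 phosphatases at high phosphate at each time and in the mean of the times, and 0% of all genes. Robust empirical Bayes also called 0. Even ARR2 was not called, though its log2 ratio was 3.36 at 4 h, and 3.40 and 3.59 on 1 array each at 8 h and 10 h. The 0 calls therefore do not show that the phosphatases were unchanged. At an unadjusted p below 0.05 there were 1 phosphatase at 4 h (PHO5, -0.44, SE 0.09, adjusted p = 0.204), 0 at 8 h, 2 at 10 h (PHO5 at 0.65 and PHO11 at 0.56, adjusted p = 0.389 and 0.391) and 0 in the mean, among 974, 1228, 577 and 1630 genes. The lone 10 h array was assumed to vary like the others. In the mean of the times the 95% interval of PHO5 ran from -0.12 to 0.23 around 0.06, that of PHO11 from -0.07 to 0.33, that of PHO12 from -0.16 to 0.31, that of PHO8 from -0.09 to 0.24 and that of PHO13 from -0.11 to 0.22. The intervals of PHO3, -0.47 to 0.20, and PHM8, -0.72 to 0.39, were wider. The mean of PHO5 averages values of opposite sign, -0.44 at 4 h and 0.65 at 10 h, with -0.04 at 8 h. Its interval therefore does not bound the response at a single time. Without the first 8 h array PHM8 passed as lower at 8 h (-1.02, adjusted p = 0.0246), where it then rests on 1 array, and in the mean (-0.34, adjusted p = 0.0274), while 502 and 1260 genes were called in those fits. Without the second 8 h array 564 and 1255 genes were called and 0 of the phosphatases. Of the other phosphate pathway genes 24 were fitted at high phosphate and 0 were called at any time or in the mean.

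The response at low phosphate was then set against that at high phosphate at each time, in a limma fit of all 11 arrays over 4841 genes. At 4 h PHO5 was higher at low than at high phosphate by 1.56 (SE 0.15, adjusted p = 0.00166), PHO11 by 0.84 (SE 0.15, adjusted p = 0.017) and PHO12 by 0.70 (SE 0.18, adjusted p = 0.0449). PHM8 was lower by -2.06 (SE 0.38, adjusted p = 0.0223). PHO8 at 0.42 (adjusted p = 0.116) and PHO13 at -0.06 (adjusted p = 0.822) did not pass. That is 3 of 6 higher and 1 lower, where 7.6% of genes were called higher and 1.36% lower and the median over all genes was 0.19. Of the 25 other pathway genes fitted 3 were higher, PHM6 by 1.41, PHO89 by 1.00 and PHO84 by 0.58, and 0 lower. PHM6 had a value on only 1 array at each time of high phosphate, so its difference is set against an unreplicated value. PHO84 did not pass after centring (0.0696), with the replicate block (0.0605) or without the second low phosphate 4 h array, any 1 of the 8 h and 10 h low phosphate arrays or either high phosphate 4 h array (0.0726 to 0.169). PHM6 did not pass without the second low phosphate 4 h array (0.0514).

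Of these 4 h calls, that of PHO5 held in every alternative run. PHO11 failed without the second low phosphate array (0.09) or either high phosphate array of 4 h (0.0786 and 0.0693), in a range from 0.00229 to 0.09. PHO12 failed after centring (0.52, adjusted p = 0.093), with the replicate block (0.0605) and without any 1 low phosphate array or either high phosphate array of 4 h (0.0729 to 0.201), in a range from 0.0103 to 0.201. PHM8 failed without the second low phosphate array of 4 h, which held no value for it (0.0568), without any 1 of the low phosphate arrays of 8 h and 10 h (0.0547 to 0.0575) and without either high phosphate array of 4 h (0.0812 and 0.0603), in a range from 3.79e-05 to 0.0812.

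At 8 h the difference was large for all but PHO13. PHO5 was lower at low than at high phosphate by -2.89 (SE 0.15, limma adjusted p = 0.000121), PHO11 by -2.48 (SE 0.15, adjusted p = 0.000222), PHM8 by -2.46 (SE 0.31, adjusted p = 0.00175), PHO12 by -1.83 (SE 0.18, adjusted p = 0.000611) and PHO8 by -0.95 (SE 0.15, adjusted p = 0.00279). PHO13 at -0.35 (adjusted p = 0.0914) passed only after centring (-0.34, adjusted p = 0.0441, range 0.0441 to 0.316). The 5 calls held in every alternative run that could fit the gene. They compare with 9.92% of genes called lower and 18.8% higher. PHO3, in the added fit over 5073 genes, was at 1.03 (SE 0.35, adjusted p = 0.0754) and did not pass. The other pathway genes had 13 of 25 lower and 1 higher, led by PHM6 at -2.95, PHO84 at -1.83 and PHO89 at -1.68, with PHO90 higher at 1.07 except without either low phosphate array of 8 h (adjusted p = 0.0546 and 0.0525). The difference of PHM6 rests on 1 high phosphate array of 8 h. GIT1, in the added fit, was at -3.41 (SE 0.29, adjusted p = 0.00103).

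At 10 h, against the single high phosphate array, PHO5 was lower by -1.13 (SE 0.18, limma adjusted p = 0.0237) and was the 1 phosphatase called, where 1.67% of genes were called lower and 2.6% higher. It failed with the replicate block (0.0517) and without either low phosphate array of 8 h (0.0672 and 0.0676) or of 10 h (0.134 and 0.0864), in a range from 0.00445 to 0.134. PHO11 at -0.78 (adjusted p = 0.0518) and PHO13 at -0.64 (adjusted p = 0.0682) lay just outside the threshold. Both passed after centring (0.016 and 0.0197), without either low phosphate array of 4 h and without either high phosphate array of 8 h, PHO11 also after scaling (0.0324) and in the fit over genes with a value in the groups compared (0.0473), in ranges from 0.0155 to 0.201 and from 0.0197 to 0.215. PHM8 at -0.73 (adjusted p = 0.306) passed without the first or second high phosphate array of 8 h (0.0229 and 0.0277, range 0.0229 to 0.516). PHO8 at -0.38 (adjusted p = 0.261) and PHO12 at -0.17 (adjusted p = 0.688, 95% interval -0.67 to 0.32) did not pass. Of the other pathway genes PHO2 was called, higher by 0.88 (adjusted p = 0.046), and lost its call after scaling (0.0542), with the replicate block (0.0802) and without any 1 low phosphate array of 8 h or 10 h or either high phosphate array of 4 h (0.079 to 0.179).

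**Figure D4:**
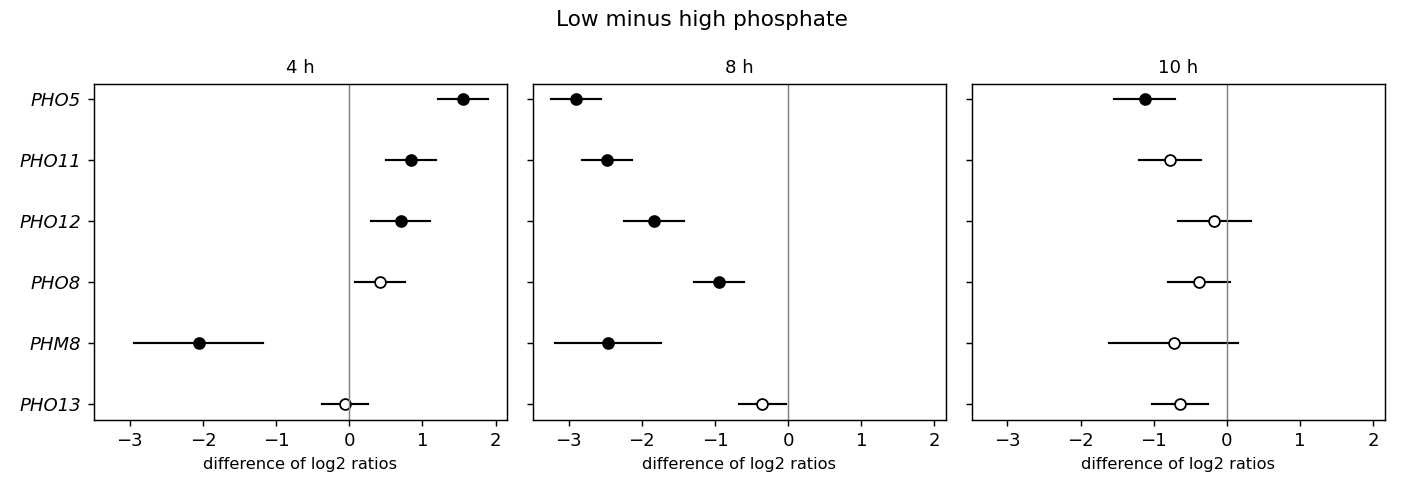
Difference of log2 ratios, low minus high phosphate (horizontal axis), at 4, 8 and 10 h for the 6 phosphatases fitted (vertical axis), with limma's 95% interval as a line, filled points for adjusted p below 0.05 and open points otherwise. PHO5 lies at 1.56 at 4 h, -2.89 at 8 h and -1.13 at 10 h.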

How the data were processed

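Per the labels' protocols, total RNA was reverse transcribed with Cy5-dUTP for the arsenate culture and Cy3-dUTP for the control and hybridised to 2-colour arrays, and the authors used spots with a flag value of 0 for normalization. The deposited values were read as log2 ratios normalized by the authors. What the log base, centring, method of normalization and genome build were is not stated by the labels or headers. Base 2 was taken, and the direction was taken from the dyes. Values reach 8.99, too large for base 10 on a scanner, but other bases were not excluded. The fold values therefore rest on base 2 being right. Intensities were not used, so signal over background is unknown.

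Each table held 10807 spots. Of these, 9202 at low and 9271 at high phosphate named 1 gene, 0 named several, and 1605 and 1536 named none and were left out. Of the 5598 and 5636 genes named, 5593 and 5636 were found in RefSeq. Spots of a gene were averaged per array. Genes with a value in every group and at least 1 residual degree of freedom were fitted with limma 3.58.1 (lmFit, eBayes) in R 4.3.3, with arrays of a condition sharing 1 estimate of spread, two-sided tests and a threshold of 0.05 after Benjamini-Hochberg adjustment over all genes tested. Prior degrees of freedom were 15.5 at low phosphate, 1.72 at high phosphate and 3.49 for the difference. The fit was run on simulated data with changes planted at 8 h only, for genes with a value on every array of a condition. That simulation did not cover missing values or the low minus high difference. Tables and figures used Python 3.11.15, numpy 2.4.6, pandas 2.3.3 and matplotlib 3.10.9.

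Differences between replicates 1 and 2 correlated across genes at 0.109, 0.136 and 0.19 between the times of low phosphate. At high phosphate the value was -0.02. The main fits treated all arrays as unpaired. Pairing by label number entered only the replicate block alternative, for both conditions. The members, gene lists and rule for naming genes were chosen with earlier results of these data known. The rule named the 7 phosphatases, the pathway genes with the 3 largest called changes in each direction of a comparison, the nucleotide salvage genes and DIA3, and the 5 genes nearest in profile to each phosphatase. PHO92 and GIT1 had too few values to fit at low phosphate, and PHO88, HOR2 and PGM3 were not analysed here. Alternatives were centring, scaling, the median of spots, genes on every array, robust empirical Bayes, the replicate block and each array left out.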

Additional observations from a re-analysis of the deposited data

Results flagged for a closer look

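Differences between times or between phosphate conditions that passed limma's test (Benjamini-Hochberg over all genes tested) are collected here as differences of log2 ratios. At low phosphate, 8 h minus 4 h was -4.04 for PHO5, -3.07 for PHO11, -2.43 for PHO12, -1.24 for PHO8 and -0.75 for PHM8. The last of these rests on 1 array at 4 h. For 10 h minus 8 h the values were 2.45 for PHO5, 2.23 for PHO11, 2.19 for PHO12, 0.76 for PHO8 and 2.34 for PHM8. Low minus high phosphate at 4 h was 1.56 for PHO5, 0.84 for PHO11, 0.70 for PHO12 and -2.06 for PHM8. At 8 h it was -2.89 for PHO5, -2.48 for PHO11, -1.83 for PHO12, -0.95 for PHO8 and -2.46 for PHM8, and at 10 h -1.13 for PHO5. Array design differed between the phosphate conditions and cannot be told apart from phosphate in these last 10 values.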

How the results depend on the processing

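The number of phosphatases called stayed within 1.5 times of the reported one in all alternatives at 4 h and 8 h of low phosphate, in both differences between times and for low minus high phosphate at 8 h. Leaving out 1 array at a time gave 1 to 4 at 10 h of low phosphate (3 with all arrays), 0 to 1 at 8 h and in the mean of high phosphate (0), 1 to 4 for low minus high phosphate at 4 h (4) and 0 to 4 at 10 h (1). For that 10 h difference centring gave 3, scaling 2, the replicate block 0 and the added fit over genes with a value in the groups compared 2. The replicate block also ended the calls of PHO8 at 4 h (adjusted p = 0.0525) and PHO13 at 8 h (0.0525) of low phosphate, PHO12 (0.0605) in low minus high phosphate at 4 h and PHO5 (0.0517) at 10 h, and changed no other call of a phosphatase. PHM8 reversed for 8 h minus 4 h after scaling, at 0.35; the cause was not tested. Of 966 values of single phosphatases under alternatives, 900 kept their side of the threshold with no called value changing sign, 43 lost a call, 22 gained one and 1 reversed.

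Over all genes, the number called ran from 1380 to 3048 at 8 h of low phosphate (2535 reported), from 609 to 2326 at 10 h (1709), from 932 to 2187 for 8 h minus 4 h (1715) and from 1404 to 2943 for 10 h minus 8 h (2354). It ran from 0 to 564 at 8 h (0), 0 to 1260 in the mean (0) and 0 to 1 at 4 h and at 10 h (0) of high phosphate. For low minus high phosphate it ran from 101 to 980 at 4 h (434), 629 to 1723 at 8 h (1392) and 0 to 599 at 10 h (207). Leaving out the first 8 h array, or the second, gave 607 and 927, or 688 and 692, higher and lower calls at 8 h of low phosphate, and leaving out the first 4 h array, or the second, gave 524 and 1663, or 917 and 789, for 8 h minus 4 h. Centring moved the split of higher to lower calls to 1446 and 1181 from 951 and 1584 at 8 h, to 1041 and 1061 from 1047 and 662 at 10 h, to 1294 and 845 from 627 and 1088 for 8 h minus 4 h and to 1125 and 1258 from 1586 and 768 for 10 h minus 8 h of low phosphate. For low minus high phosphate it gave 213 and 187 in place of 368 and 66 at 4 h, and 227 and 291 in place of 126 and 81 at 10 h.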
